A study of Mus musculus with 6 samples.

Results

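The Tac2/Nmu neurons are a group of spinal cord neurons that the deposited annotation names for the peptide genes Tac2 and Nmu. They were taken as every nucleus annotated both as a neuron and as the Tac2/Nmu subtype. There were 159 of them, or 2.63% of the 6035 annotated neurons and a small part of the 18514 nuclei in the table. The mice were wild-type C57BL/6 animals, sampled at the lumbar cord, with a severe contusion of the thoracic cord that paralyzed both legs. Single-nucleus RNA sequencing counts RNA molecules per nucleus with unique molecular identifiers (UMIs). In the 3 TESS samples, mice were on a treadmill for 30 min with targeted epidural electrical stimulation, which let them walk when agonists of the 5-HT1a serotonin and D1 dopamine receptors were given. The 3 CON samples, labelled paralyzed, came from mice on the treadmill for the same time without the stimulation, and whether they received the agonists is not clear from the labels. All 6 samples therefore share the injury, and none is from an uninjured animal. The labels do not say that the samples came from separate animals, so the p-values below measure the spread between these samples, which may be in part technical. The extraction text speaks of tissue around the thoracic injury, while the sample labels say lumbar cord.

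Tac2 encodes the precursor of neurokinin B, a tachykinin peptide that acts mainly on the receptor encoded by Tacr3. Nmu encodes neuromedin U, which acts on the receptors encoded by Nmur1 and Nmur2. Excitatory interneurons that make neurokinin B are known from the superficial layers of the mouse dorsal horn, where circuits that receive touch, itch and pain input lie. They release glutamate, which the vesicular transporter encoded by Slc17a6 loads into vesicles. A neuropeptide is cut from its precursor inside dense-core granules, and many peptide genes carry a cAMP response element, the site bound by the activity-dependent factor CREB.

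The peptide genes Tac2, Nmu and Sst, the last of which encodes the precursor of somatostatin, were the ones found in most of these nuclei, and their upstream sequence is shown to set the peptides beside this element. Coordinates are on GRCm38.p6 and sequences are from RefSeq, and the Tac2 and Nmu stretches end where the gene of the GENCODE M21 annotation begins. The Tac2 stretch covers all 250 bases before the RefSeq start at chr10:127724228-127724477 on the plus strand. The Nmu stretch covers 239 bases at chr5:76363789-76364027 on the minus strand. For Sst, 30 bases at chr16:23890874-23890903 on the minus strand are given, since GENCODE starts that gene further upstream than RefSeq does and places these bases inside it. Capitals mark the full element TGACGTCA or its core TGACG.
Tac2: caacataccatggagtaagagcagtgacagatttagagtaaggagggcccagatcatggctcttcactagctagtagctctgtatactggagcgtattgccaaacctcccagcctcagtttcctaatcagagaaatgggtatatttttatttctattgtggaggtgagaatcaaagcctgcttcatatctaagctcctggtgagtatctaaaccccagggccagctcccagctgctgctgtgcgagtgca
Nmu: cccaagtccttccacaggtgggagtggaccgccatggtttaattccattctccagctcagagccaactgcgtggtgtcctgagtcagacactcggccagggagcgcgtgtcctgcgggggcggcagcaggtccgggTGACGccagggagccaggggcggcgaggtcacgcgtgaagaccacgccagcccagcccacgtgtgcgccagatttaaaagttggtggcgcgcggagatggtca
Sst: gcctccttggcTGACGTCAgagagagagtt
The full element lay with its first base 48 bases upstream of the RefSeq start of Sst, where the textbook element of this gene lies. One core stood 114 bases upstream of Nmu, and neither form was found in the Tac2 window. Searched on both strands in the 250 bases upstream of 32851 starts, the full element was in 1.55% of windows and the core, which every full element also contains, in 17.8%. The core in Nmu is therefore a common match. A match is a description of the letters only.

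The 159 nuclei carried 225304 UMIs, and fewer nuclei came from the TESS samples. There were 16, 22 and 17 nuclei in TESS 1, 2 and 3, against 32, 36 and 36 in CON 1, 2 and 3. They summed to 30378, 20548 and 14797 UMIs in the TESS samples, against 50965, 64664 and 43952 in the CON samples. In CPM (UMIs scaled to 1000000 in the summed nuclei of a sample), 1 UMI was thus worth 32.9 to 67.6 CPM in TESS and 15.5 to 22.8 CPM in CON. The median nucleus had 1927.5, 914.5 and 809 UMIs in TESS, against 1610, 1821 and 1174.5 UMIs in CON. The groups overlapped in that median (difference of means -318 UMIs, two-sided exact permutation test, p = 0.5, n = 3 each). Whole samples held 1582104 to 4037976 UMIs. The metadata put TESS 1, CON 1 and CON 2 in batch 3 and each other sample in a batch of its own, without saying what a batch is. Barcode sequences that occur in more than 1 library were carried by 411 of the 18514 nuclei and by 1 of the 159.

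The label held against the markers. Nmu was highest in these neurons of the 37 subtypes with at least 50 nuclei, at 2676 CPM over all samples together, with at least 1 UMI in 88.7% of the nuclei (141 of 159, exact 95% interval 82.7 to 93.2%). The Tac2/Tacr3 subtype followed at 1362 CPM, then the Nts subtype at 293 CPM. Free RNA gives a background, and Nmu had a UMI in 0.260% of oligodendrocytes (median 433 UMIs a nucleus) and in 0.694% of inhibitory neurons (median 1891.5 UMIs). Tac2 was detected in 82.4% of the 159 nuclei (interval 75.6 to 88.0%), against 0.860% of oligodendrocytes and 3.23% of inhibitory neurons. Its level was 3977 CPM over all samples together, against 19374 CPM in the Tac2/Tacr3 subtype and 1096 CPM in the Nts subtype. Slc17a6 was sparse, with a UMI in 28.3% of the nuclei (interval 21.5 to 36%), against 10.0% of inhibitory neurons (289 of 2880) and 1.06% of oligodendrocytes. Of those 289 inhibitory nuclei, 200 belonged to the Fxyd6 and V1/V2b/Slit2 subtypes, which had 238 and 179 CPM of Slc17a6 and so may hold neurons of more than 1 class, and the other 15 inhibitory subtypes had 4.03% (89 of 2210). At 262 CPM it ranked eighth, and the highest subtype, Pdyn, had 442 CPM. These intervals cover counting error only. The nuclei were clustered and named on their expression, so the levels against other neurons describe the subtype and are given with no test.

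**Figure D1:**
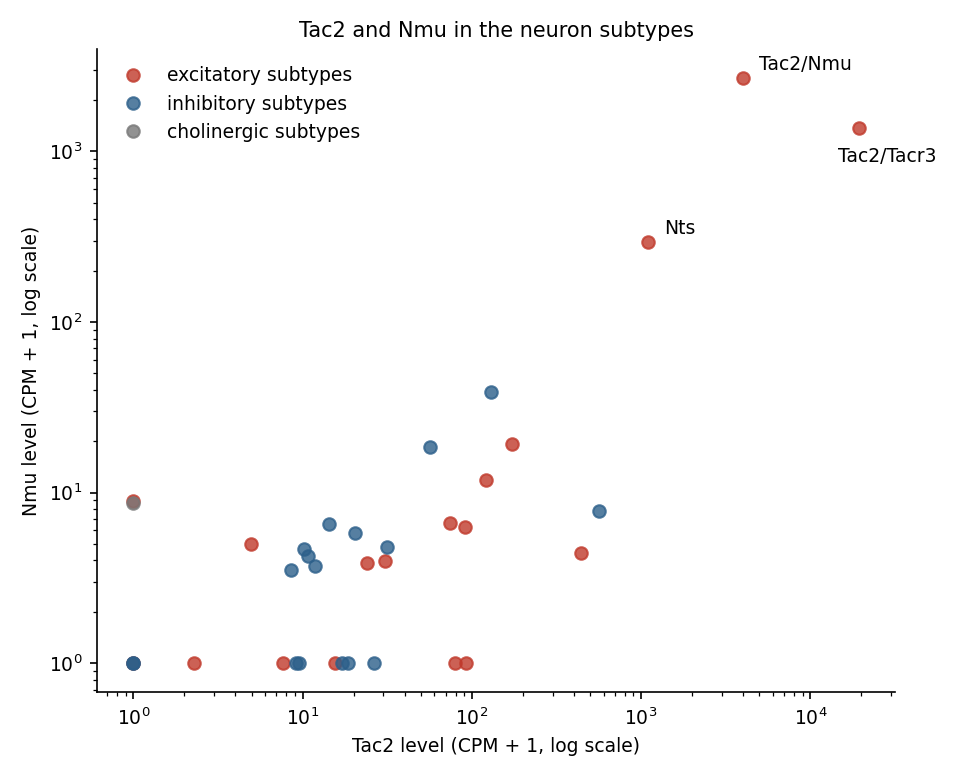
Tac2 against Nmu level (CPM + 1, both axes logarithmic) in 36 of the 37 neuron subtypes with at least 50 nuclei, all samples together, coloured by transmitter class. The Tac2/Nmu neurons lie furthest along the Nmu axis, at 2676 CPM, while the Tac2/Tacr3 subtype lies further along the Tac2 axis, at 19374 CPM.

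Both name genes were mostly found in the same nuclei. Tac2 and Nmu had a UMI together in 120 of the 159 nuclei (75.5%, where their separate shares multiply to 73.1%). Tac2 was found without Nmu in 11 nuclei and Nmu without Tac2 in 21. The 7 nuclei with neither were shallow, with a median of 612 UMIs (528 to 1307); 5 came from TESS and 2 from CON samples, and 6 of them held Sst. Tac2, Nmu and Sst were all present in 115 nuclei. The 159 nuclei, although a small share of the neurons, held 603 of the 892 Nmu UMIs found in neurons (67.6%), and 16.9% of the Tac2 UMIs. Their share of neuronal Nmu UMIs was 59.1, 60.0 and 60.0% in the TESS samples, against 68.5, 74.1 and 68.3% in the CON samples, beside a lower share of these nuclei among TESS neurons, given below.

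Beyond the name genes, these were somatostatin neurons with a further peptide load. Sst was detected in 93.7% of the 159 nuclei, against 29.6% of the other neurons, 13.7% of inhibitory neurons and 2.69% of oligodendrocytes. It averaged 3785 ± 1127 CPM, against 915 ± 242 CPM in other neurons (mean ± SD over the 6 samples, n = 6), and ranked sixth among the subtypes. Grp, which encodes gastrin-releasing peptide and is known in dorsal horn itch circuits, had a UMI in 38.4% of the nuclei and averaged 413 ± 128 CPM, against 44.7 ± 17.0 CPM in other neurons. Of the subtypes, Bnc2 at 596 CPM and Grp at 580 CPM came before the Tac2/Nmu neurons at 453 CPM over all samples together. Adcyap1, the precursor of the peptide PACAP, averaged 411 ± 137 CPM, against 76.9 ± 8.97 CPM in other neurons. Nts, encoding neurotensin, stood near the other neurons at 167 ± 106 CPM, against 150 ± 72.7 CPM.

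Other peptide genes of the dorsal horn were low or not detected. Tac1, the substance P precursor, and Pdyn, Pnoc, Npff, Trh, Crh, Ucn3, Vip and Nms had no UMI in these nuclei. A count of 0 allows up to 13.3 CPM over all 159 nuclei (3 UMIs) and up to 1.89% of nuclei with a UMI, which does not limit the nuclei that express the gene. Penk, the enkephalin precursor, averaged 39.3 ± 38.4 CPM, against 211 ± 20.9 CPM in other neurons. Npy, encoding neuropeptide Y, averaged 7.58 ± 18.6 CPM, against 211 ± 68.3 CPM. Of the 22 listed peptide genes, 13 reached 50 CPM in the subtype or in other neurons, and of these 5 were more than 2-fold higher and 6 more than 2-fold lower in the subtype. Over all 4637 genes at that level, 7.85% were as much higher and 12.6% as much lower (ratios of CPM + 10).

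Among receptors for tachykinins, neuromedins and gastrin-releasing peptide, little was detected in these nuclei. Tacr3 had 6 UMIs in all and was in 3.14% of the nuclei, and Tacr1, Tacr2, Nmur2, Nmbr and Grpr had none. Nmur2, one of the neuromedin U receptors, was in 16.3% of the other neurons at 112 ± 29.4 CPM, and Nmur1 was not analysed here. Of the somatostatin receptors, Sstr2 had 7 UMIs in 3.77% of the nuclei (26.7 ± 42.2 CPM, against 37.2 ± 8.81 CPM in other neurons), and Sstr1 and Sstr3 had none. The PACAP receptor gene Adcyap1r1 had 12 UMIs in 6.92% of the nuclei, at 46.3 ± 29.5 CPM, against 51.8 CPM in other neurons. Among other peptide receptors, Galr1, a galanin receptor, averaged 63.7 ± 68.6 CPM, against 4.69 ± 1.46 CPM in other neurons. Although sparse, it was highest of the 37 subtypes at 84.3 CPM over all samples together, with Lxh1/Nxph1 next at 42.2 CPM. The targets of both agonists were not detected either: Htr1a and Drd1 each had 0 UMIs here and were in 0.885% and 0.630% of the other neurons. A count of 0 allows up to 1.89% of nuclei with a UMI, so these 2 genes cannot be told from their level in other neurons. Htr2c, a serotonin receptor, had 170 ± 108 CPM, against 639 ± 75.4 CPM in other neurons. All 4 serotonin and dopamine receptor genes that reached 50 CPM in either class were more than 2-fold lower in the Tac2/Nmu neurons. Among all genes at that level, 12.6% were as much lower. These are levels of nuclear RNA, which need not follow protein.

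The 20 genes highest against the other neurons included secreted, matrix and transcription factor genes besides the peptides. They were ranked by the log2 ratio of mean CPM + 10 among 669 genes with at least 50 UMIs here and 1 in every sample. Nmu led with 2510 ± 463 CPM, against 24.6 ± 5.49 CPM in other neurons (log2 ratio 6.19). Sema3c, a secreted semaphorin of axon guidance, averaged 445 ± 119 CPM, against 28.2 ± 5.04 CPM (3.57). Over all samples together it was highest here of the 37 subtypes, at 439 CPM, with Tac2/Tacr3 next at 376 CPM. Pthlh, encoding parathyroid hormone-related protein, averaged 201 ± 161 CPM, against 9.21 ± 2.74 CPM (3.46). It was in 27.7% of the nuclei at 257 CPM over all samples together, behind the Tac2/Tacr3 subtype at 326 CPM and 38.9% of nuclei. The 159 nuclei held 33.9% of its neuronal UMIs, with 14.3, 14.3 and 16.7% in the TESS samples, against 40.4, 48.9 and 23.1% in the CON samples. C1ql3, a secreted synaptic protein gene, had a ratio of 3.42, Tac2 of 3.36, the matrix gene Adamtsl3 of 3.16 and Car12, a carbonic anhydrase gene, of 3.13. Maml3, a coactivator of Notch signalling, averaged 1883 ± 265 CPM, against 216 ± 26.9 CPM (3.07). Adamtsl3 and Maml3 were also highest here of all 37 subtypes. For Maml3 the Tac2/Tacr3 subtype was close, at 1772 CPM against 1824 CPM here over all samples together. Further down the list came Cemip, Grp, Fbn2, Sox5, Ebf2, Trpm3, Arap2, Sox5os4, Fam49a, Mapk4 and Peak1, with ratios of 2.98 down to 2.42. Trpm3, a cation channel gene known for noxious heat sensing in sensory neurons, averaged 7197 ± 957 CPM, against 1145 ± 160 CPM. The Tac2/Tacr3 subtype had 7999 CPM of Trpm3 over all samples together. The ratio of 19 of the 20 genes is drawn with its range over samples.

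**Figure D2:**
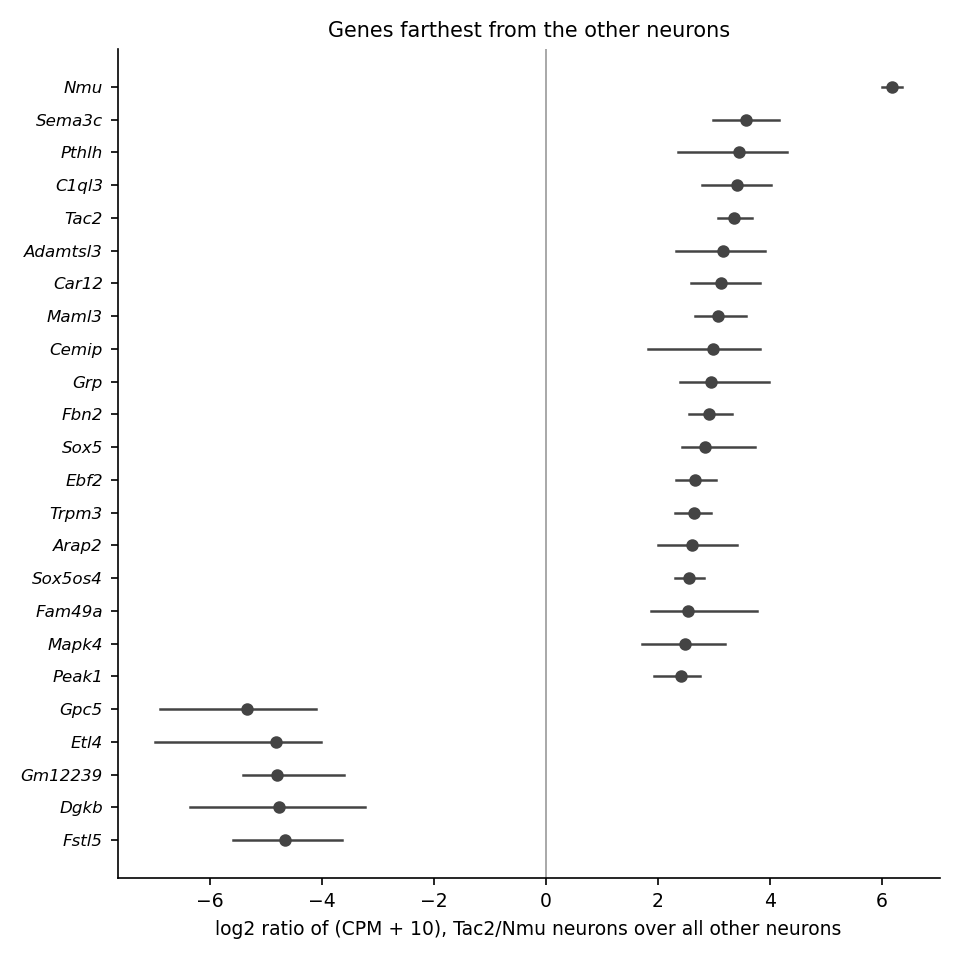
Log2 ratio of mean level (CPM + 10) in Tac2/Nmu neurons over all other neurons for 19 of the 20 genes with the highest ratios and the 5 with the lowest (points), with the lowest and highest sample as a line. Nmu stands apart at 6.19, the other high genes run from 3.57 to 2.42, and the low ones from -4.66 to -5.34.

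At the other end were genes common in other spinal neurons. Gpc5, a glypican gene, averaged 17.9 ± 24.0 CPM, against 1121 ± 49.3 CPM in other neurons (log2 ratio -5.34), the lowest of the 852 genes at 200 CPM or more in other neurons. Etl4, the noncoding gene Gm12239, the diacylglycerol kinase gene Dgkb and Fstl5 followed, with ratios of -4.82 to -4.66. Gpc5, Dgkb and Gm12239 were at their lowest here of the 37 subtypes. All 5 were also low in the Tac2/Tacr3 subtype, over all samples together. There Gpc5 had 33.4 CPM, Dgkb and Gm12239 41.8 CPM each, and Etl4 and Fstl5 16.7 CPM each. Nrxn3, a presynaptic adhesion gene, averaged 299 ± 215 CPM, against 5117 CPM in other neurons (-4.05).

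Transcription factors of the dorsal excitatory lineage were present. Tlx3, which specifies glutamatergic dorsal neurons in the mouse embryo, averaged 115 ± 84.3 CPM, against 15.2 ± 4.19 CPM in other neurons, second of the 37 subtypes, but its range over samples included a ratio below 1. Sox5 averaged 1423 ± 447 CPM, against 189 ± 27.9 CPM, Ebf2 1886 ± 186 CPM, against 291 ± 44.9 CPM, and Ebf1 5404 ± 620 CPM, against 1738 ± 255 CPM. Maf had no UMI and Meis2 had 1. Of 21 dorsal horn factors at 50 CPM or more in either class, 7 were more than 2-fold higher (33.3%) and 8 more than 2-fold lower (38.1%). The shares among all genes at that level were 7.85% and 12.6%. Of 17 ventral and inhibitory lineage factors, 15 had no UMI and the others had 3 between them. The inhibitory neuron genes Gad1, Gad2, Slc32a1, Slc6a5 and Pax2 together had 10 UMIs, with Gad2 at 0, and their summed level ran from 0 to 32.9 CPM in TESS and from 0 to 137 CPM in CON.

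Granule and excitability genes lay on both sides of the other neurons. Pam, the enzyme that amidates peptides, averaged 2086 ± 205 CPM, against 745 ± 67.9 CPM in other neurons, and the convertase gene Pcsk2 averaged 1471 ± 396 CPM, against 615 ± 110 CPM. Cadps2, a granule release factor, had 1 UMI. Kcnc2, a fast potassium channel gene, averaged 1910 ± 507 CPM, against 451 ± 39.2 CPM. Kcnn3, a calcium-activated potassium channel gene, averaged 112 ± 67.8 CPM, against 24.2 ± 2.41 CPM. Over all samples together Kcnn3 had 88.8 CPM here, hardly above the next of the 37 subtypes, Lxh1/Nxph1, at 84.5 CPM. Cacna2d3, a calcium channel subunit gene, averaged 32.4 ± 33.9 CPM, against 656 ± 60.4 CPM. Of 35 channel genes at 50 CPM or more in either class, 6 were more than 2-fold higher (17.1%) and 7 more than 2-fold lower (20%). The shares among all genes at that level were 7.85% and 12.6%.

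Receptors for fast transmitters also lay on both sides. Gabrg3, a GABA-A receptor subunit gene, averaged 3489 ± 571 CPM, against 916 ± 46.2 CPM in other neurons. Glra1, the adult glycine receptor subunit gene, averaged 39.1 ± 31.9 CPM, against 553 ± 91.1 CPM, and was lowest here of the 37 subtypes. Of 16 such genes at 50 CPM or more in either class, 3 were more than 2-fold higher (18.8%) and 2 lower (12.5%). The shares among all genes at that level were 7.85% and 12.6%, so the lower count was near the share of all genes. Among glutamate receptors, Grid1 averaged 1802 ± 427 CPM, against 571 ± 58.0 CPM, while the kainate receptor gene Grik1 had 2 UMIs and Grik3 none. Of 19 glutamate receptor genes at that level, 3 were more than 2-fold higher (15.8%) and 7 lower (36.8%), beside the same shares of all genes.

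Across genes, the profile was nearest to the Tac2/Tacr3 subtype (Pearson r = 0.861 of log2(CPM + 10) over 10290 genes with at least 100 UMIs in neurons), then to Npyr-1 (0.851) and Tac1 (0.848). The order after the first depended on which genes entered. Over the 2332 genes with at least 1000 UMIs, Tac2/Tacr3 kept the first place at 0.890, while Nts had 0.782, Tac1 0.781 and Npyr-1 0.770. Genes are not independent replicates, and the subtypes come from the same libraries.

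RNA of other cell types was measured in the same nuclei. The 10 oligodendrocyte genes all had UMIs, and their summed level was 1053 to 1419 CPM in TESS and 789 to 1411 CPM in CON. For the 10 astrocyte genes it was 203 to 362 CPM in TESS and 108 to 205 CPM in CON. Of these genes 7 had UMIs, and Slc1a3, Aldh1l1 and Gjb6 had 0. For the 10 microglia genes it was 97.3 to 203 CPM in TESS and 114 to 139 CPM in CON. Here too 7 had UMIs, and Tmem119, Siglech and Inpp5d had 0. Mean summed levels were 1191 CPM for the oligodendrocyte, 220 CPM for the astrocyte and 137 CPM for the microglia genes. In other neurons they were 764, 132 and 159 CPM. The part of this RNA in the results below was not tested. In bulk sums of this kind, fewer expressing nuclei and less RNA per nucleus cannot be told apart. Detection per nucleus is compared between the groups below for Tac2 and Nmu only.

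Tac2/Nmu neurons made up a smaller share of the neurons in each TESS sample than in any CON sample. The share was 2.18% (16 of 735 neurons), 2.05% (22 of 1072) and 2.42% (17 of 703) in TESS, against 2.68% (32 of 1194), 3.29% (36 of 1094) and 2.91% (36 of 1237) in CON. The groups did not overlap, but each sample's exact 95% interval did, running at the widest from 1.25 to 3.84% in TESS and from 1.84 to 4.53% in CON. The means were 2.22 ± 0.186% in TESS and 2.96 ± 0.308% in CON (SD, n = 3 each), a difference of -0.745 percentage points. The two-sided exact permutation test gave p = 0.1, the smallest value that 3 against 3 samples allow. Within batch 3 the difference was -0.809 points. The pattern was not rare among subtypes, since 8 of 38 (21.1%) were lower in all TESS samples and 2 (5.26%) higher.

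Immediate early genes, the first to be transcribed after strong neuronal activity, were close to the detection limit in these nuclei. Of the 32 listed genes in the table, 17 had any UMI, and they summed to 6, 6 and 4 UMIs in the TESS samples, against 6, 11 and 6 UMIs in the CON samples. Fos had 1 UMI in TESS and 0 in CON, Egr1 had 2 and 0, Junb had 1 and 1, and Per1 had 3 and 3. Arc, Fosb, Jun and Sik1 had 0 UMIs in both. Summed over the list, the level was 198, 292 and 270 CPM in TESS, against 118, 170 and 137 CPM in CON. TESS was higher in every sample, by 0.79 on the log2 scale of summed CPM + 10 (two-sided exact permutation test, p = 0.1, the smallest possible, n = 3 each), and by 0.45 within batch 3. The list had 16 UMIs in TESS and 23 in CON, and CPM divides these by UMI sums that were smaller in TESS. Values resting on so few UMIs are imprecise, and the part of depth in the result was not tested. TESS was higher without overlap in 14 of the 24 subtypes (58.3%) with at least 10 nuclei in every sample, and the Tac2/Nmu neurons ranked 13 among the 24 in the size of the difference. No immediate early gene had enough counts for a test of its own.

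**Figure D3:**
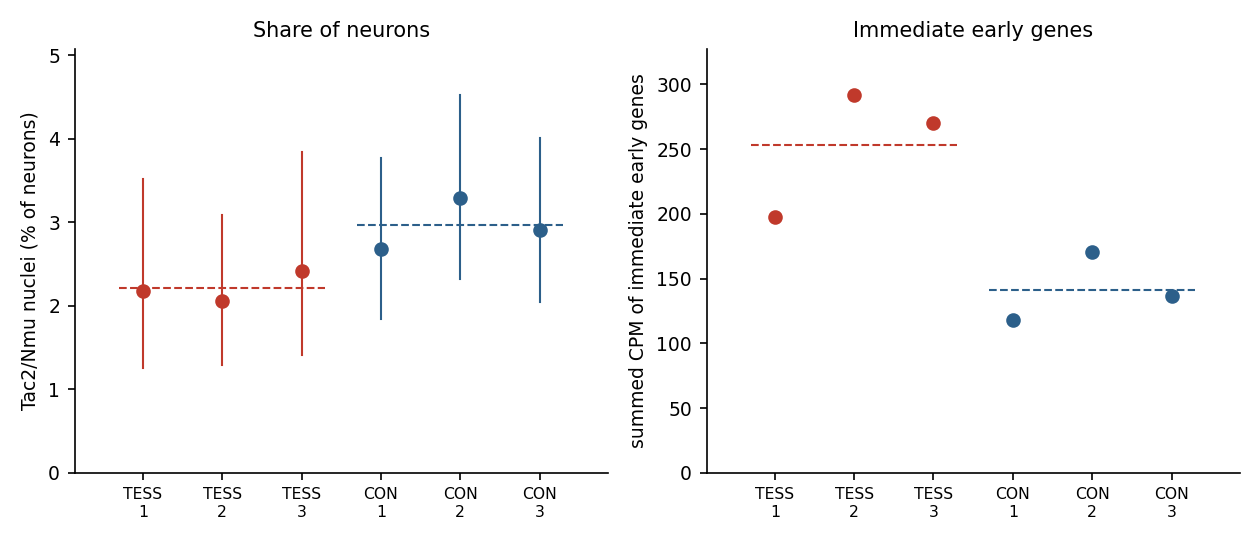
Share of neurons that were Tac2/Nmu neurons in each sample (left, percent, bars are exact 95% intervals) and summed level of immediate early genes in these nuclei (right, CPM), with group means as dashed lines. The TESS shares lie at 2.05 to 2.42% and the CON shares at 2.68 to 3.29%, while the summed level is 198 to 292 CPM in TESS and 118 to 170 CPM in CON.

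Summed per sample and tested across genes, no gene passed the test between TESS and CON in these neurons. Of 584 genes with enough counts, 0 (0%) passed an adjusted p below 0.05 (edgeR quasi-likelihood test, Benjamini-Hochberg), with 43 (7.36%) below 0.05 before adjustment, 19 higher (3.25%) and 24 lower (4.11%). With a lower minimum count of 5, 1 of 1457 genes (0.0686%) was called, Kcnip4, higher in TESS, and with no filter on low counts 5 of 12438 (0.0402%), all lower in TESS (Cisd1, Itm2b, Malat1, Resp18 and Rtn1). With 1 nucleus of every sample left out, an alternative described with Kcnip4 below, 6 of 584 (1.03%) were called, Clasp2 higher (0.171%) and Itm2b, Malat1, Resp18, Rtn1 and Scg2 lower (0.856%). DESeq2 called 0 as well, with 104 below 0.05 before adjustment. Levels in the TESS and CON samples did not overlap for 79 of the 584 genes (13.5%), 45 higher (7.71%) and 34 lower (5.82%). The changes lay around 0, with a median log2 fold change of -0.01 and 289 genes (49.5%) above 0.

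Neither name gene passed the test, and both had fold changes below 0. Tac2 had 3884, 3358 and 3041 CPM in TESS, against 3610, 4392 and 4459 CPM in CON. TESS 1 lay above CON 1, so the groups overlapped (log2 fold change -0.32 ± 0.18, SE; adjusted p = 0.754, edgeR). In the other excitatory neurons the change of Tac2 was -0.50 ± 0.14. Those neurons are a pool of subtypes whose shares of neurons also differed between the groups. Npyr-1, Tac1 and Trh were lower and V2a/Etl4 was higher in every TESS sample, without overlap. A fold change in the pool, here and below, can thus hold a change in its make-up, and that part was not tested. Nmu had 2666, 1752 and 2230 CPM in TESS, against 2727, 3093 and 2594 CPM in CON, again overlapping (-0.39 ± 0.20; adjusted p = 0.663, edgeR). Its change in the other excitatory neurons was -0.07 ± 0.29. Counted per nucleus after thinning each to 500 UMIs, Tac2 was in 72.1, 69.1 and 54.6% of the TESS nuclei, against 66.9, 64.3 and 77.7% of the CON nuclei (two-sided exact permutation test, p = 0.6, n = 3 each). Nmu was in 73.3, 55.6 and 58.5% of the thinned TESS nuclei, against 70.7, 77.4 and 70.1% in CON (p = 0.3, same exact test). Without thinning the differences of the means were -6.48 points for Tac2 and -14.6 points for Nmu, and 1 nucleus of TESS 2 was too shallow to be thinned.

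The other peptides of the subtype did not pass the test either. Sst had 2864, 2093 and 5271 CPM in TESS, against 4160, 4206 and 4118 CPM in CON, so that TESS 3 was the highest sample and the other TESS samples the lowest (-0.41 ± 0.22; adjusted p = 0.719, edgeR). The value was -0.80 without TESS 3 and -0.17 without TESS 2. In other excitatory neurons the change of Sst was -0.60 ± 0.15 with all samples. Grp had 230, 389 and 338 CPM in TESS, against 412, 588 and 523 CPM in CON. Every TESS sample was below every CON sample (-0.80 ± 0.33; adjusted p = 0.497, edgeR), and the other excitatory neurons had nearly the same value (-0.85 ± 0.32). Pthlh rested on 3, 2 and 1 UMIs in TESS, against 23, 23 and 6 in CON, or 98.8, 97.3 and 67.6 CPM in TESS, against 451, 356 and 137 CPM in CON. It was too sparse for the test above, and with a lower count limit of 5 its log2 fold change was -1.88 ± 0.55 (adjusted p = 0.151, edgeR). Adcyap1 had 329, 487 and 608 CPM in TESS, against 491, 278 and 273 CPM in CON. It was the 1 peptide gene of the 5 tested whose fold change was above 0 (0.29 ± 0.34; adjusted p = 0.899, edgeR). Slc17a6 had 494, 146 and 405 CPM in TESS, against 216, 217 and 228 CPM in CON, with TESS 2 below all others.

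**Figure D4:**
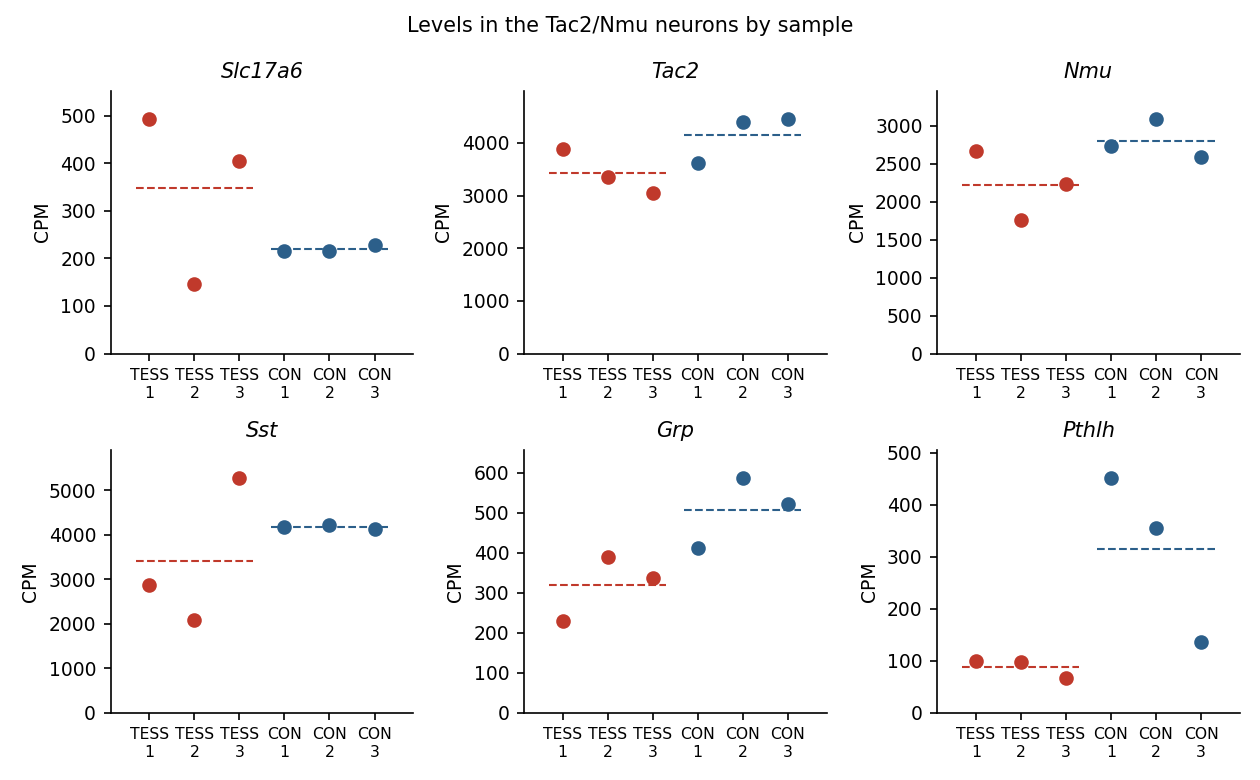
Level of Slc17a6, Tac2, Nmu, Sst, Grp and Pthlh (CPM) in the Tac2/Nmu nuclei of each sample, TESS on the left and CON on the right of each panel, with group means as dashed lines. Grp (230 to 389 CPM in TESS, 412 to 588 CPM in CON) and Pthlh do not overlap between groups, and the other 4 genes do.

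Tac2 was also compared in the Tac2/Tacr3 subtype, the nearest in profile. There it had 21157, 20313 and 17509 CPM in TESS, against 24753, 17234 and 14266 CPM in CON, which overlapped. No test was run on this subtype.

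The genes nearest to the threshold were a potassium channel partner above 0 and granule, calcium and membrane genes below 0. None passed in the main test, and some passed in the alternative fits given above and in the closing sections. Kcnip4, a calcium-binding partner of Kv4 channels, lies at chr5:48389502-49524907 on the minus strand (GRCm38). It had 988, 146 and 811 CPM in TESS, against 78.5, 155 and 273 CPM in CON, and TESS 2 lay within the CON range. The log2 fold change was 1.96 ± 0.44 (adjusted p = 0.074, edgeR), against -0.17 ± 0.11 in other excitatory neurons. A single nucleus, looked for after the value was seen, weighed on it. It held 25 of the 30 Kcnip4 UMIs of TESS 1 (83.3%), together with 14 of the 21 Nrxn3 UMIs and all 13 Erbb4 and 7 Cck UMIs of that sample, and it also carried 5 Tac2, 3 Nmu and 9 Sst UMIs. Without it TESS 1 had 181 CPM of Kcnip4 and the log2 fold change was 0.92 (adjusted p = 0.794, edgeR). Other samples also rested on single nuclei, since 1 nucleus held 9 of the 12 Kcnip4 UMIs of TESS 3 and 1 held 6 of the 12 of CON 3. With the nucleus richest in Kcnip4 left out of every sample, the levels were 181, 50.7 and 219 CPM in TESS, against 40.5, 127 and 141 CPM in CON, and the log2 fold change was 0.45 (adjusted p = 0.994, edgeR). Both omissions were chosen after seeing the data. With all nuclei, Kcnip4 in this subtype was far below the other excitatory neurons, which had 4566 to 5894 CPM in TESS and 5356 to 6110 CPM in CON. It was also low in the Tac2/Tacr3 subtype, with 801, 256 and 620 CPM in TESS, against 223, 547 and 108 CPM in CON. The groups overlapped there, with a mean of 559 CPM in TESS and 293 CPM in CON, and no test was run.

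Of the genes above 0, Clasp2, whose protein binds microtubule plus ends, had 494, 535 and 811 CPM in TESS, against 294, 247 and 228 CPM in CON, without overlap (1.10 ± 0.32; adjusted p = 0.136, edgeR). Fmn2, an actin-nucleating formin gene, had 560, 389 and 608 CPM in TESS, against 255, 247 and 228 CPM in CON, also without overlap (1.00 ± 0.33; adjusted p = 0.264). Cntn5, an adhesion gene, had a log2 fold change of 0.94 ± 0.32 without overlap. Tshz3, a zinc finger factor gene, had 0.82 ± 0.29 with overlap, close to its 0.67 ± 0.14 in other excitatory neurons. Kcnip4, Clasp2, Cntn5 and Tshz3 contain or overlap other annotated genes, and how the counting used strand is not given in the sources used here.

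Below 0, Itm2b, a membrane protein gene of the BRI family, had 230, 292 and 338 CPM in TESS, against 922, 758 and 432 CPM in CON (-1.44 ± 0.36; adjusted p = 0.0959, edgeR). Calm2, 1 of the calmodulin genes, had 230, 389 and 203 CPM in TESS, against 569, 650 and 637 CPM in CON (-1.23 ± 0.32; the same adjusted p). Resp18, a granule protein gene, had 724, 779 and 1419 CPM in TESS, against 1668, 1763 and 1615 CPM in CON (-0.95 ± 0.25). Rtn1, a reticulon of the endoplasmic reticulum, had 922, 633 and 879 CPM in TESS, against 1668, 1577 and 1160 CPM in CON (-0.92 ± 0.26; adjusted p = 0.12). In these 4 genes every TESS sample was below every CON sample. Malat1, a nuclear noncoding RNA, had 24294, 29930 and 31358 CPM in TESS, against 30688, 53724 and 39520 CPM in CON, with overlap (-0.60 ± 0.16). It ran from -0.77 without CON 1 to -0.37 without CON 2. The fold change in other excitatory neurons was -0.60 ± 0.22, and those of Itm2b, Resp18 and Rtn1 there were -0.51 ± 0.12, -0.66 ± 0.13 and -0.62 ± 0.13. Calmodulin genes are near-identical in coding sequence, so Calm2 reads may be split between copies.

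**Figure D5:**
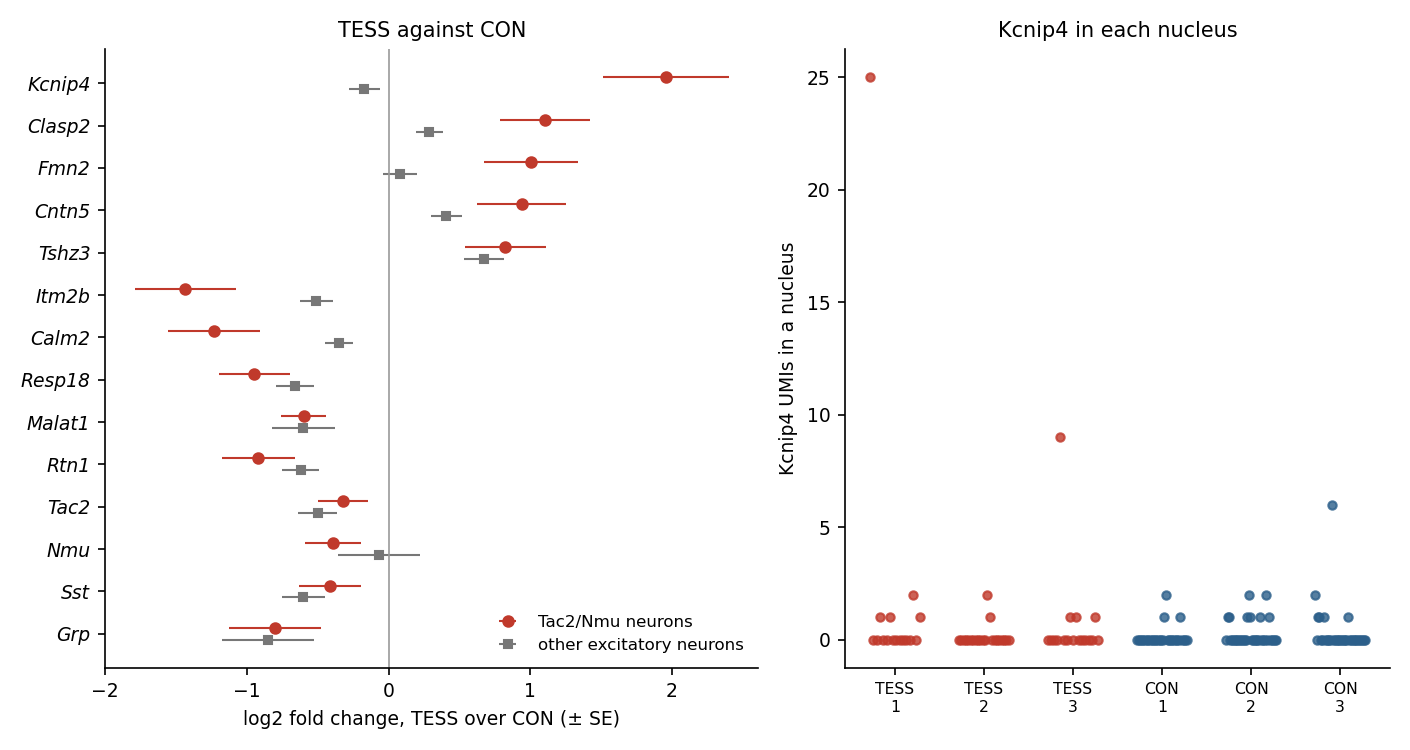
Left, log2 fold change of TESS over CON (± SE) in Tac2/Nmu neurons (red circles) and in other excitatory neurons (grey squares). The 10 genes are those with the smallest p in each direction, 5 above and 5 below 0, followed by Tac2, Nmu, Sst and Grp. Right, Kcnip4 UMIs in each nucleus by sample. Kcnip4 is the widest apart between the classes, at 1.96 and -0.17, and 1 TESS 1 nucleus with 25 UMIs stands above all others on the right.

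The difference between the fold change here and that in the other excitatory neurons was tested directly, in a fit that kept each sample as a block. This fit does not separate a change of level in the pooled neurons from a change in the subtypes that make up the pool. None of the 584 genes passed, that is 0% (33, or 5.65%, had a p below 0.05 before adjustment; edgeR). Kcnip4 was again first, with a difference of 2.17 ± 0.49 (adjusted p = 0.0849), with the nucleus described above included. Ankfn1 (0.83 ± 0.25), Sidt1 (1.41 ± 0.43), Ptprm (-1.25 ± 0.41), a receptor tyrosine phosphatase gene, and Itm2c (0.82 ± 0.27) followed, with adjusted p of 0.595 or more. For the name genes the differences were 0.17 ± 0.16 for Tac2 and -0.36 ± 0.25 for Nmu.

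Few of the listed genes had enough counts to compare TESS with CON, and none passed. Of 22 listed peptide genes 5 had enough counts, 1 above and 4 below 0, with a median log2 fold change of -0.39, beside -0.01 over all 584 genes. In other excitatory neurons the same 5 genes had a median of -0.50. Of 14 granule genes 8 were tested, 2 above and 6 below 0 (median -0.12, and -0.25 in other excitatory neurons). The lowest was Scg2, the secretogranin II gene, with 403 ± 66.6 CPM in TESS and 781 ± 246 CPM in CON without overlap (-1.07 ± 0.32; adjusted p = 0.161, edgeR). Of 39 channel genes 20 were tested, 13 above and 7 below 0 (median 0.10). Of 22 glutamate receptor genes 13 were tested, 6 above and 7 below 0 (median -0.01), and of 18 GABA and glycine receptor genes 6, with 4 above and 2 below 0 (median 0.06). Of 33 dorsal horn transcription factors 7 were tested, 5 above and 2 below 0 (median 0.05). Of the 20 genes highest against other neurons 15 were tested, 6 above and 9 below 0 (median -0.13), and Pthlh, Adamtsl3, Cemip, Arap2 and Fam49a were too sparse. Among the 15, Sox5os4, a noncoding RNA gene named as antisense to Sox5, had -0.93 ± 0.37 while Sox5 itself had 0.37 ± 0.25, and neither passed. In other excitatory neurons they had -1.28 ± 0.24 and -0.23 ± 0.15.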

How the data were processed

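Libraries used 10x Genomics version 2 chemistry with 5000 nuclei loaded a sample, per the labels' protocols. The build was mm10 (GRCm38) and the tools included Cell Ranger 2.2.0 and Seurat 3, per the submitters' processing notes. The deposited values are raw counts of UMIs for 19954 genes in 18514 nuclei, with cell type, subtype, batch and mitochondrial fraction per nucleus as the authors annotated them, per the file headers. The series text speaks of 20484 nuclei and 6171 neurons, while the table annotates 6035 neurons. The mitochondrial fraction was deposited by the authors and used only to describe the samples. Whether doublets were removed is not given in the sources used here, and no caller was run.

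Counts of the Tac2/Nmu nuclei were summed per sample and tested with edgeR 4.0.16 in R 4.3.3 (quasi-likelihood test, TMM scaling, filterByExpr with a minimum count of 10, Benjamini-Hochberg, calls below 0.05). The difference from other excitatory neurons (2927 nuclei of the other excitatory subtypes) was an interaction term with sample as a block. Each of the 38 subtypes was classed as excitatory (20), inhibitory (17) or cholinergic (1) by its transmitter genes. Single values per sample were compared with exact permutation tests in scipy 1.17.1. CPM divides by the UMIs of the summed nuclei. Thinned shares are the expected detection at 500 UMIs a nucleus. Shares have exact Clopper-Pearson intervals, and a count of 0 has a floor of 3 UMIs. The fit was tested on simulated data with known changes. Spans and coordinates are from GENCODE M21.

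Named genes were the markers, the peptide and receptor genes, the 20 highest and 5 lowest against other neurons, up to 4 highest and 2 lowest of each other list, the 5 smallest p in each direction and the 5 smallest of the interaction, with genes an earlier analysis had named. The members and lists were chosen with earlier results of these data known. The alternatives tried were other scaling (RLE, library totals), DESeq2 1.42.0, count limits, a replicate block, batch, equal numbers of nuclei, each sample left out and 1 nucleus left out of TESS 1 or of every sample. Some genes and 1 subtype are not reported here.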

Additional observations from a re-analysis of the deposited data

How the results depend on the processing

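The count of genes called between TESS and CON was 0, and it stayed at 0 with RLE factors, with DESeq2, without the 1 nucleus of TESS 1 that was rich in Kcnip4 and in the median of 20 draws of 16 nuclei a sample (7 of 20 draws had a call). It was 5 of 12438 genes with no filter (Cisd1, Itm2b, Malat1, Resp18 and Rtn1, all lower in TESS; 0.0402%), a fit in which the median log2 fold change of all genes was -0.52. It was 1 (Kcnip4) with a minimum count of 5, 1 with library totals, 1 (Kcnip4) with batch as a term, 2 (Kcnip4 and Malat1) within batch 3 and 3 (Itm2b, Kcnip4 and Malat1) with the replicate block. It was 6 (Clasp2, Itm2b, Malat1, Resp18, Rtn1 and Scg2) with the nucleus richest in Kcnip4 left out of every sample. Within batch 3 a single TESS sample, TESS 1, whose Kcnip4 rests on 1 nucleus, stands against 2 CON samples, and it is assumed to vary as they do. Leaving out 1 sample gave 0 to 5 calls, with 5 without CON 3, 2 without TESS 2 and 1 without CON 2. The cause was not tested. Library totals, the omitted nuclei, all other neurons in place of the excitatory ones (0 calls), the share of neurons within batch 3, the likeness over fewer genes and the block for the early genes, the median depth and the thinned shares were added after seeing the data. For the difference from other excitatory neurons the count was 0, 1 with no filter, 1 with a minimum count of 5 and 0 to 1 with a sample left out, with Kcnip4 the gene called without TESS 2, without TESS 3 or without CON 3. The alternatives gave 322 values of 19 genes. These genes were the 5 of smallest p in each direction, with Tac2, Nmu, Sst, Grp, Adcyap1, Scg2, Sox5, Sox5os4 and Arhgap6. Of the 322 values, 24 passed and 4 reversed. The reversed ones were Adcyap1 at -0.28 with batch as a term and -0.24 within batch 3, and Sox5 at -0.28 and -0.24. Nmu ran from -0.61 to -0.24 and Tac2 from -0.46 to -0.26 with a sample left out. Other named genes were not rerun.

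The share of neurons differed by -0.885 to -0.579 points with a sample left out, the early gene level by 0.68 to 0.96 on the log2 scale and the median depth by -673 to -114 UMIs. The thinned Tac2 share ran from -7.76 to 0.967 points, turning above 0 without TESS 3, and the thinned Nmu share from -15.7 to -6.78 points. Same-numbered samples did not deviate together (correlations of -0.12, -0.05 and -0.12), and the other pairs had -0.01 to 0.12. Pairing by replicate number was thus not seen. Levels were sparse and were first centred within each group of 3, so these correlations cannot exclude it. With the replicate block, an exact sign-flip test gave p = 0.25 for the share of neurons (-0.745 points) and p = 0.25 for the early gene level, the smallest 3 pairs allow. Depth limits the comparison, with 584 genes testable and 1 UMI worth up to 67.6 CPM, as do 3 samples a group.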

Other observations

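Cisd1, a mitochondrial outer membrane iron-sulfur protein gene, was named after its values were seen. It had 0 UMIs in the 3 TESS samples together, against 26 UMIs in CON, which is at least 3.57-fold lower with a floor of 3 UMIs over the TESS group. In other excitatory neurons it had 160 UMIs (89.6 CPM) in TESS and 469 UMIs (144 CPM) in CON. It was below the count limit of the main test.

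The noncoding gene Gm15261, which lies antisense within Arhgap6, had 5, 2 and 0 UMIs in TESS, against 24, 29 and 10 UMIs in CON, without overlap. With a minimum count of 5 its log2 fold change was -1.95 ± 0.51 (adjusted p = 0.083, edgeR), and that of Arhgap6 in the main test was -0.37 ± 0.19. The other excitatory neurons had 56.1, 54.9 and 22.6 CPM of Gm15261 in TESS, against 167, 170 and 122 CPM in CON, also without overlap. Arhgap6 had a log2 fold change of -0.49 ± 0.13 there, so neither change was particular to this subtype. Reads of an antisense pair can be told apart only where strand was used in counting, which is not given in the sources used here.

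Fold changes differed in their median between short and long genes, with many exceptions. The median log2 fold change was -0.25 in the 72 tested genes with a span up to 25 kb, of which 25% were above 0, and 0.04 in the 243 genes over 300 kb, of which 57.6% were above 0. In other excitatory neurons the same genes had medians of -0.28 and 0.04. Across the 581 genes with a span, Spearman's rho was 0.19 here and 0.32 in other excitatory neurons, as a description only. Genes over 100 kb took 54.3, 55.5 and 53.0% of the UMIs in TESS, against 50.4, 51.4 and 53.0% in CON, and the last value of each group differed only in the second decimal. Itm2b (23.1 kb), Calm2 (13.5 kb), Resp18 (6.22 kb) and Malat1 (6.98 kb) are short, and Kcnip4 (1135 kb), Cntn5 (1244 kb) and Fmn2 (321 kb) are long. Exceptions were Ptprm (688 kb), with -1.17, Rtn1 (197 kb), with -0.92, and Tshz3 (75.4 kb), with 0.82. Of the genes over 300 kb, 12 were higher and 7 lower at an unadjusted p below 0.05. The part of gene length in these results was not tested.

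The chi-square statistic per degree of freedom over genes, from the summed counts of these nuclei, was 1.27 to 1.56 for pairs of a TESS and a CON sample, and 1.26 to 1.40 for pairs within a group, the highest of these for CON 1 and CON 2, which had the most UMIs. It rises with depth, so the ranges are not compared, and no 2 samples of a group looked like a library deposited again.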
